A study of Mus musculus with 8 samples.

Results

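Transcripts of 10 genes of MHC antigen presentation were followed in skeletal muscle of diet-induced obese C57BL/6 mice. The genes were chosen by name, 5 of class I (H2-K1, H2-D1, B2m, Tap1 and Tap2) and 5 of class II (H2-Aa, H2-Ab1, H2-Eb1, Cd74 and Ciita), and all 10 were found among the 22173 genes of the deposited table. Earlier results of these data were known when they were chosen. The liraglutide group was injected subcutaneously with liraglutide, an agonist of the receptor for the gut hormone GLP-1, at 0.2 mg/kg per day for 9 weeks. The model group, obese mice of the same strain, received saline. Mice were 24 weeks old, 8 were assigned to each group, and muscle of 4 per group was sequenced, so no lean mice enter the comparison. Which muscle was taken is not given in the labels.

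MHC class I molecules present peptides from the cell's interior to CD8+ T cells, and nearly all nucleated cells carry them. A polymorphic heavy chain (H2-K1 or H2-D1 in this strain) pairs with beta-2 microglobulin, encoded by B2m, and is loaded with peptides that the Tap1-Tap2 transporter moves into the endoplasmic reticulum. MHC class II molecules present peptides from endosomes to CD4+ T cells and are made mainly by macrophages, dendritic cells and B cells. Their alpha and beta chains (H2-Aa with H2-Ab1, H2-Eb1 with an alpha chain that C57BL/6 mice lack) assemble on the invariant chain Cd74, and Ciita is the coactivator that their transcription requires. Resting muscle fibres are known to carry little class I and no class II.

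The RefSeq promoter table used here matched 6 of the 10 members, and the 5 that share a paired element are shown, since class I and class II promoters are known to share the X2 and Y boxes. Each run has 300 bases, 250 before and 50 after the start, 5′ to 3′ on the gene's strand (GRCm38.p6). Capitals mark TGANG, the core of the X2 box with an open position, and, 20 to 22 bases after it, ATTGG, the Y box CCAAT read on the other strand.
H2-K1 (chr17:34000284-34000583, minus strand): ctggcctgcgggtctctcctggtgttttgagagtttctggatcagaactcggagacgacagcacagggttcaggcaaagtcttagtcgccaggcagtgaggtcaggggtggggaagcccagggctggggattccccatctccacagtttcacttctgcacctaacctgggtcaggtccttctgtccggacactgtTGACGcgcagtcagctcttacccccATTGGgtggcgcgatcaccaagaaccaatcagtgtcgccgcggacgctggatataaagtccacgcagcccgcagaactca
H2-D1 (chr17:35262844-35263143, plus strand): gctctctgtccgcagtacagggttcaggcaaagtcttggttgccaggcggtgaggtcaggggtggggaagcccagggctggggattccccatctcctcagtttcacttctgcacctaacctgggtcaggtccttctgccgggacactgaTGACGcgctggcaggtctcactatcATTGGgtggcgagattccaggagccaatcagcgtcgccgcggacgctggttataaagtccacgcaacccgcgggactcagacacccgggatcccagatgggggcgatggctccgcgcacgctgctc
B2m (chr2:122147437-122147736, plus strand): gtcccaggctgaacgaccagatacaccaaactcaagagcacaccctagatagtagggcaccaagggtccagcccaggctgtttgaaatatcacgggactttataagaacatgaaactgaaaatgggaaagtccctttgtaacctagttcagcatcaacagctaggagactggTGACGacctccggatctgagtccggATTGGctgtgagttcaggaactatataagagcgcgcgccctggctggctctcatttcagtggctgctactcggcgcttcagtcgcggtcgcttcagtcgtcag
H2-Aa (chr17:34287774-34288073, minus strand): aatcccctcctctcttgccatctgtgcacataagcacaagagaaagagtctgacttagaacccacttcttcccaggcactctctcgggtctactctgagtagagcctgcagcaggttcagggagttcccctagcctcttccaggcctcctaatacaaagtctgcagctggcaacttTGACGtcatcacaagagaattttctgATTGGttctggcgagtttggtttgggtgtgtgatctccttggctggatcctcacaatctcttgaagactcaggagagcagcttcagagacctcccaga
H2-Eb1 (chr17:34305617-34305916, plus strand): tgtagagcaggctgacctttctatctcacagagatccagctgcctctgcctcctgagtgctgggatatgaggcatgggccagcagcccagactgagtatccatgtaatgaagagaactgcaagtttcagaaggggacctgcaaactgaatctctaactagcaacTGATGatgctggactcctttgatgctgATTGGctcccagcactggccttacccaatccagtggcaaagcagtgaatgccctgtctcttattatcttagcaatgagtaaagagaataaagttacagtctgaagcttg

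The pair stood in 5 of the 6 members' promoters and in 0.956% of all 32851 RefSeq promoters, searched on both strands. Its letters were chosen after these promoters had been read. The open position was allowed because H2-Eb1 held no TGACG in this stretch and had TGATG at a similar distance from its Y box. Whether that TGATG is the X2 box of H2-Eb1 was not tested. The allowed distance of 20 to 22 bases equals the range found in these 5 promoters, so the 2 shares are not a test. Both elements were 20 bases apart in H2-K1, H2-D1 and B2m, 21 in H2-Aa and 22 in H2-Eb1. RefSeq lists 2 starts for H2-K1, and the one further downstream is shown. The promoter of Tap1 held the X2 core TGACG, found in 20.8% of all promoters, and the Y box, found in 37.4%, but not the pair at this distance. Both are parts of the pair, so these matches overlap with it in the other genes. Among other genes of the pathway, the pair was present in 3 of 13 class I and class I-like heavy chains (H2-Q6, H2-Q7 and H2-M3). It also stood in 3 of 12 genes of class II loading and processing (H2-DMb1, H2-DMb2 and H2-Eb2). It was found in 0 of 8 class I loading, 0 of 5 immunoproteasome, 0 of 11 regulator, 0 of 16 interferon gamma and 0 of 5 costimulation genes. A match describes letters and is not a measured binding site. Promoters of Tap2, H2-Ab1, Cd74 and Ciita were not analysed here.

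Libraries held 17133476 to 18244579 counts with liraglutide, against 15033631 to 16622716 for the model mice. The quasi-likelihood test of edgeR covered 12963 genes, and a call means a Benjamini-Hochberg adjusted p under 0.05 over all of them. It called 10.3% of the genes, 707 higher (5.45%) and 626 lower (4.83%) with liraglutide, and with raw library sizes 338 higher and 1241 lower. Fibre genes marked the tissue as muscle, Acta1 averaging 23323 ± 732 FPKM with liraglutide and 20762 ± 533 FPKM in the model group (SD, n = 4 per group); FPKM are fragments per kilobase of gene, scaled to the library total. Markers of epididymis, a tissue foreign to muscle, summed to 0.283 to 25.5 CPM in liraglutide and 27.9 to 51 CPM in model libraries (CPM, counts scaled to the library total), and 8 of 9 tested fell. The most abundant of them were Gpx5, which fell (log2 fold change -5.69, edgeR adjusted p = 0.00047), and Spink8, which had 0, 29.4, 0 and 0.144 FPKM with liraglutide, against 1.87, 3.45, 3.3 and 2.3 FPKM in the model group, without a call; their part in the results was not tested.

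B2m alone among the 10 members fell with liraglutide. The other 9 did not pass the test, although all 10 had a negative log2 fold change (liraglutide minus model), against 52.2% of all tested genes. The median log2 fold change was -0.61 over the 5 class I members, -0.52 over the 5 class II members and -0.01 over all tested genes. The 1 call among 10 members stands beside 4.83% of all tested genes called lower. At an unadjusted p under 0.05, 5 of the 10 were lower (B2m, H2-K1, H2-Aa, H2-Eb1 and Cd74), against 13.4% of all tested genes lower and 26.5% in either direction. The members were chosen with earlier results of these data known, and all 10 were highest in the same mouse, model 1. Their counts beside these shares are therefore a description and not a test. In a bulk sample, fewer cells of a type and less RNA per cell cannot be told apart.

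B2m (Entrez gene 12010) encodes the light chain that every classical class I heavy chain needs to reach the cell surface, and its level was the highest of the members. B2m stood at 221, 158, 155 and 178 FPKM with liraglutide, against 410.0, 265, 286 and 316 FPKM in the model group, in libraries 1 to 4 of each group. Every liraglutide library lay below every model library. The means were 178 ± 30.7 FPKM with liraglutide and 319 ± 64.1 FPKM in the model group (SD, n = 4 per group). The log2 fold change was -0.77 (SE 0.147), with an adjusted p of 0.0122 in edgeR. The call held in 20 of 20 alternative analyses, with log2 fold changes of -0.89 to -0.63 and adjusted p up to 0.0358. No 50-base stretch of its longest coding GENCODE transcript occurred in a transcript of another gene.

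H2-K1 (Entrez gene 14972), a classical class I heavy chain, stood at 75.7, 50.2, 45.1 and 58.7 FPKM with liraglutide, against 133, 75.8, 80.3 and 85.6 FPKM in the model group. In FPKM the groups did not overlap, but liraglutide 1 and model 2 lay almost level. Its log2 fold change was -0.63 (SE 0.197, edgeR adjusted p = 0.0731), which is not a call. In FPKM, B2m and H2-K1 were the 2 of 10 members whose groups did not overlap, both with liraglutide below. Of all tested genes, 15.4% had liraglutide below and 20.3% lacked overlap in either direction. In log2 CPM with the scaling of the edgeR fit (TMM), B2m stayed apart and H2-K1 overlapped. There H2-K1 stood 0.114 above its mean in liraglutide 1 and 0.0467 above it in model 2.

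H2-D1 (Entrez gene 14964), the other classical heavy chain of this strain, stood at 144, 92.7, 97 and 116 FPKM with liraglutide, against 194, 129, 129 and 146 FPKM in the model group. Liraglutide 1 lay within the model range and the other liraglutide libraries below it. The log2 fold change was -0.34 (SE 0.161, edgeR adjusted p = 0.217). Of the 50-base stretches of the longest coding transcript, 8.79% for H2-K1 and 14.3% for H2-D1 also occurred in other class I genes. Counts of both heavy chains are therefore uncertain to the extent that reads were shared or dropped.

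Tap1 and Tap2 encode the subunits of the peptide transporter, and in both genes model 1 stood apart. Tap1 (Entrez gene 21354) stood at 2.49, 1.91, 1.48 and 2.28 FPKM with liraglutide, against 6.96, 1.56, 2.56 and 2.06 FPKM in the model group. Tap2 (Entrez gene 21355) stood at 5.19, 5.08, 3.97 and 5.32 FPKM with liraglutide, against 9.25, 4.84, 5.55 and 4.61 FPKM in the model group. Among the other 7 libraries the groups overlapped in both genes. Log2 fold changes were -0.61 for Tap1 and -0.23 for Tap2 (edgeR adjusted p = 0.392 and 0.517), and 0.06 and 0.04 without model 1.

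**Figure D1:**
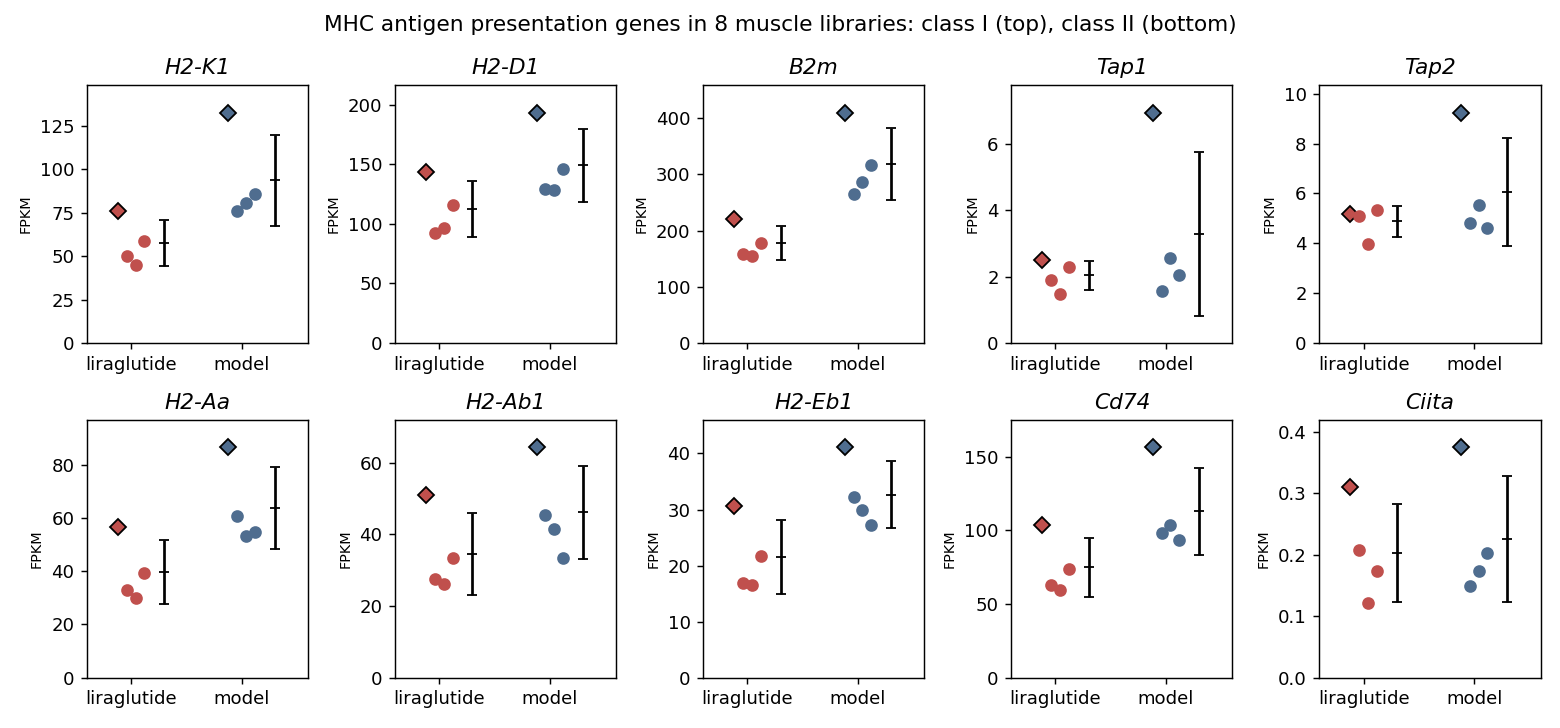
FPKM of each member in the 4 liraglutide and 4 model libraries, class I in the top row and class II in the bottom row. Diamonds mark replicate 1 of each group and bars the mean ± SD; model 1 was the highest of the 8 libraries for all 10 genes, and the groups do not overlap for B2m and H2-K1.

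The class II chains and the invariant chain had negative log2 fold changes without a call. H2-Aa (Entrez gene 14960), the alpha chain of the A molecule, stood at 56.7, 32.9, 29.9 and 39.3 FPKM with liraglutide, against 86.5, 60.7, 53.2 and 54.6 FPKM in the model group. Liraglutide 1 lay within the model range and the other liraglutide libraries below it. The log2 fold change was -0.61 (SE 0.21, edgeR adjusted p = 0.0986).

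H2-Ab1 (Entrez gene 14961), the beta chain that pairs with H2-Aa, stood at 51.1, 27.4, 26.2 and 33.5 FPKM with liraglutide, against 64.3, 45.3, 41.4 and 33.4 FPKM in the model group. Liraglutide 1 lay among the model libraries, and model 4 was level with liraglutide 4. The log2 fold change was -0.34 (SE 0.237, edgeR adjusted p = 0.4).

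H2-Eb1 (Entrez gene 14969) encodes the beta chain of the E molecule, whose alpha partner is missing in C57BL/6 mice. H2-Eb1 stood at 30.7, 16.9, 16.6 and 21.7 FPKM with liraglutide, against 41.1, 32.3, 30.0 and 27.3 FPKM in the model group. Cd74 (Entrez gene 16149), the chaperone of class II dimers, stood at 104, 62.7, 59.4 and 73.5 FPKM with liraglutide, against 156, 98.2, 103 and 93.4 FPKM in the model group. In both genes liraglutide 2, 3 and 4 lay below every model library and liraglutide 1 did not. Log2 fold changes were -0.53 for H2-Eb1 (SE 0.195, edgeR adjusted p = 0.118) and -0.52 for Cd74 (SE 0.201, edgeR adjusted p = 0.134).

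Ciita (Entrez gene 12265), the class II transactivator, had the lowest level of the members. Ciita held 53, 37, 21 and 29 counts in liraglutide libraries and 58, 22, 28 and 33 counts in model libraries. Its level was 0.31, 0.207, 0.121 and 0.173 FPKM with liraglutide, against 0.374, 0.15, 0.174 and 0.203 FPKM in the model group. The groups overlapped, and the log2 fold change of -0.08 (SE 0.352, edgeR adjusted p = 0.916) was 0.28 without model 1 and 0.11 without liraglutide 3. No difference in Ciita was detectable at this depth.

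The order of levels per gene length was the same in each of the 8 libraries. From high to low it ran B2m, H2-D1, Cd74, H2-K1, H2-Aa, H2-Ab1, H2-Eb1, Tap2, Tap1, Ciita. Mean FPKM over all libraries ran from 249 for B2m to 0.214 for Ciita. The smallest step, Cd74 over H2-K1, was 1.24-fold and the largest, Tap1 over Ciita, 12.4-fold. Ranges over the 8 libraries overlapped for every neighbouring pair except H2-Eb1 with Tap2 and Tap1 with Ciita, so the other steps hold within a library and not between libraries.

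Members of both classes had their highest FPKM in the same mouse, and all but H2-D1 their lowest. Model 1 was the highest of all 8 libraries for 10 of 10 members, by 1.38-fold over the mean of the other model libraries in H2-Eb1 and up to 3.38-fold in Tap1. Liraglutide 1 was the highest liraglutide library for 9 members, all but Tap2, and liraglutide 3 the lowest for 9, all but H2-D1. The lowest model library differed between members, model 2 for 4, model 4 for 4 and model 3 for 2. In H2-Aa, H2-Ab1, H2-Eb1 and Cd74, liraglutide 1 stood 1.59-fold to 1.76-fold above the mean of the other liraglutide libraries. Without model 1 the median log2 fold changes were -0.19 over class I and -0.32 over class II members, and B2m (-0.63) stayed called. Without liraglutide 1 the medians were -0.72 and -0.71, and H2-K1, B2m, H2-Aa, H2-Eb1 and Cd74 were called lower. That omission takes out the highest liraglutide value of 9 members. With all 8 libraries, 4.83% of all tested genes were called lower, and the share without liraglutide 1 is not given here.

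**Figure D2:**
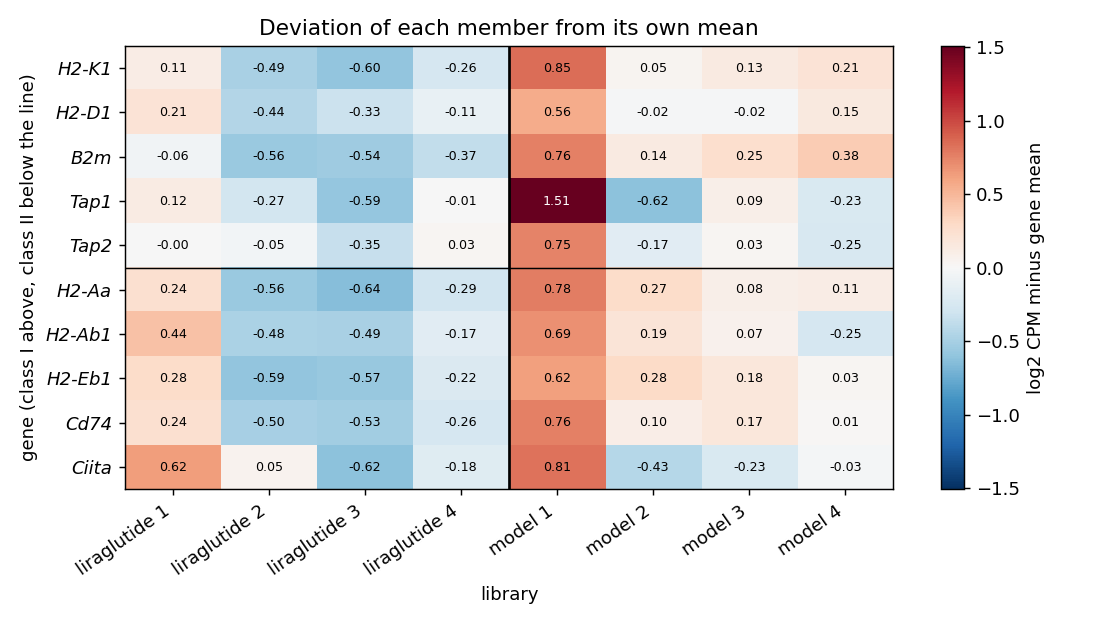
Deviation of each member's log2 CPM from its own mean over 8 libraries, class I above and class II below the horizontal line, liraglutide left and model right of the vertical line. Model 1 has the highest values, from 0.56 in H2-D1 to 1.51 in Tap1.

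**Figure D3:**
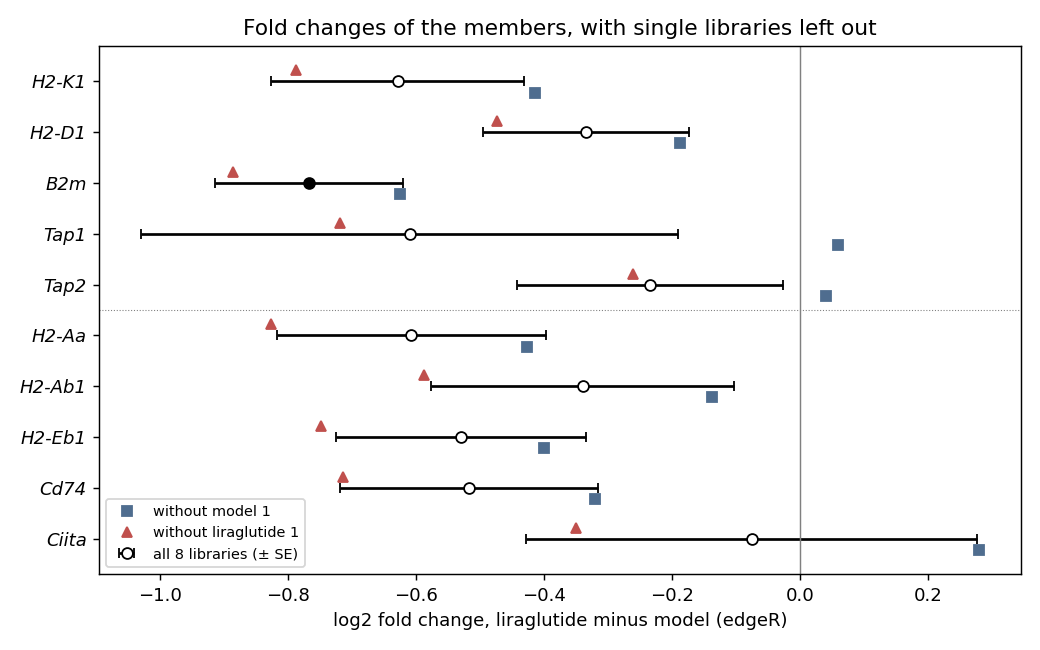
Log2 fold change (liraglutide minus model, edgeR) of each member with all 8 libraries (circles, ± SE; filled where called), without model 1 (squares) and without liraglutide 1 (triangles). B2m is the filled circle at -0.77; Tap1, Tap2 and Ciita lie above 0 without model 1.

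The difference between liraglutide and model mice was not shown to differ between class I and class II. The mean log2 deviation of class II members less that of class I members was 0.29, -0.05, -0.09 and -0.08 in liraglutide libraries and -0.15, 0.21, -0.04 and -0.08 in model libraries, ranges that overlapped. Summed FPKM of H2-K1, H2-D1 and B2m were 441, 300.4, 297 and 353 in liraglutide libraries and 736, 469, 495 and 548 in model libraries, without overlap. Summed FPKM of H2-Aa, H2-Ab1, H2-Eb1 and Cd74 were 242, 140.0, 132 and 168 in liraglutide libraries and 348, 237, 228 and 209 in model libraries, where liraglutide 1 lay within the model range. The ratio of the class II to the class I sum was 0.484 ± 0.0453 with liraglutide and 0.455 ± 0.0525 in the model group (SD, n = 4 per group). H2-Ab1 and H2-K1 stood for the classes in the 1 test between them. Their log2 ratio (H2-Ab1 over H2-K1) was -0.76 ± 0.13 with liraglutide and -1.03 ± 0.25 in the model group, a difference of 0.27 (exact two-sided permutation p = 0.114, n = 4 per group, smallest possible p 0.0286).

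The heavy chains stood in another ratio to each other in each group. H2-D1 had 1.9, 1.84, 2.15 and 1.97 times the FPKM of H2-K1 in liraglutide libraries 1 to 4, against 1.46, 1.7, 1.6 and 1.71 times in model libraries 1 to 4. The ranges did not overlap, and the means were 1.97 ± 0.133 with liraglutide and 1.62 ± 0.117 in the model group (SD, n = 4 per group). The pair was singled out after its values had been seen, and no test is given. Of the 50-base stretches of the longest coding H2-K1 transcript, 6.94% also occurred in H2-D1. The part of shared reads in this ratio was not tested.

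**Figure D4:**
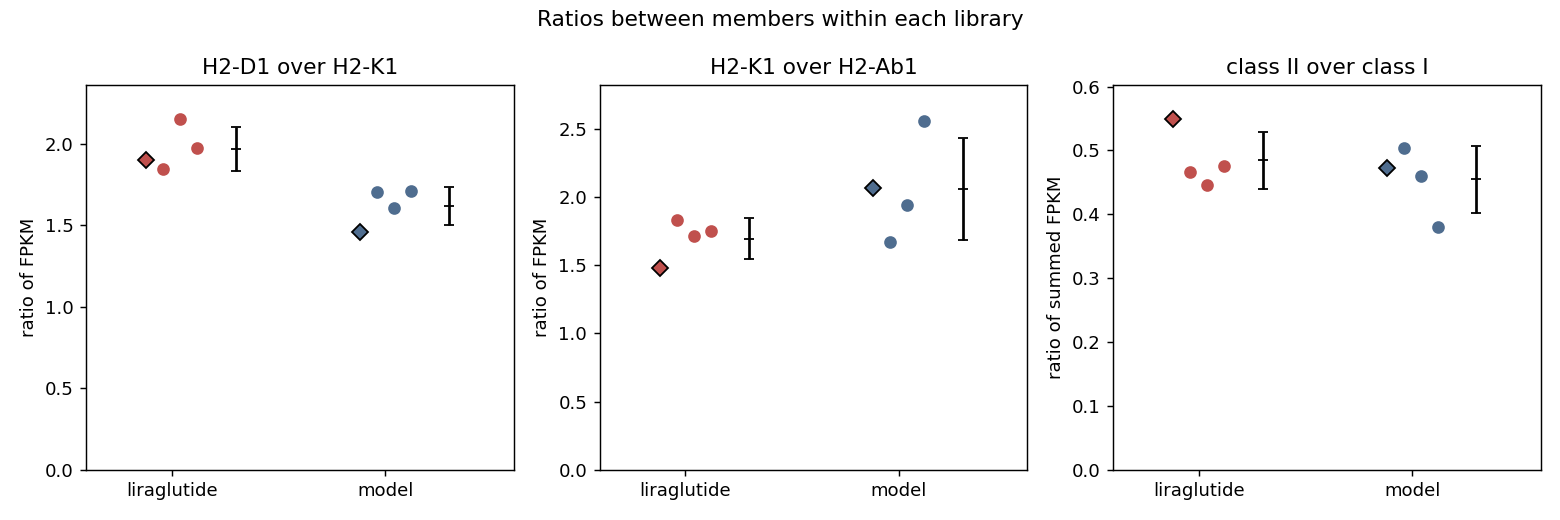
Ratios of FPKM within each library for H2-D1 over H2-K1, H2-K1 over H2-Ab1, and summed class II (H2-Aa, H2-Ab1, H2-Eb1, Cd74) over summed class I (H2-K1, H2-D1, B2m). Diamonds mark replicate 1 and bars the mean ± SD; H2-D1 over H2-K1 shows no overlap, at 1.84 to 2.15 with liraglutide and 1.46 to 1.71 in the model group.

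Partners of the class I route yielded few calls. Of 10 genes of peptide loading and transport, Sec61g rose and 0 fell, while 8 of 10 had a negative log2 fold change (median -0.09). Sec61g, a subunit of the translocation channel of the endoplasmic reticulum, averaged 30.0 ± 0.736 FPKM with liraglutide and 25.4 ± 1.94 FPKM in the model group (SD, n = 4 per group; edgeR adjusted p = 0.0218), a call that ended in 4 of 20 alternatives. Of the other 9, 3 had an unadjusted p under 0.05, all with negative log2 fold changes, the trimming peptidase Erap1 (-0.27), tapasin Tapbp (-0.32) and the chaperone Pdia3 (-0.23). Of all tested genes, 26.5% had an unadjusted p under 0.05, 13.4% with a lower level. Calls by edgeR made up 5.45% higher and 4.83% lower, and these shares stand beside every list below. Raw library sizes and the replicate block each called 2 of the 10 lower, and raw library sizes 0 higher.

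Of 5 immunoproteasome and PA28 genes, which shape peptides for class I, 0 were called by edgeR (median -0.02, and 0.20 without model 1), and 0 had an unadjusted p under 0.05. The smallest p there belonged to Psmb10, a catalytic subunit, and Psme1, a PA28 subunit, with log2 fold changes of 0.14 and 0.08. Of 12 tested genes among the other class I and class I-like heavy chains, 1 fell and 0 rose (median -0.34, -0.10 without model 1 and -0.54 without model 2).

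That gene was Cd1d1, which encodes a class I-like molecule that pairs with B2m and presents lipids to natural killer T cells. Cd1d1 stood at 4.26, 3.21, 2.77 and 5.32 FPKM with liraglutide, against 10.5, 7.55, 6.45 and 10.1 FPKM in the model group. Every liraglutide library lay below every model library. The log2 fold change was -1.08 (SE 0.213), with an adjusted p of 0.0139 in edgeR. Its call held in 20 of 20 alternatives.

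Of 9 tested genes of class II loading and processing, Sppl2a fell and 0 rose (median -0.21). Without liraglutide 1 the median was -0.36 with 3 called lower, and without liraglutide 2 it was -0.11 with 0 called. Sppl2a, the protease that removes the last fragment of the invariant chain, averaged 13.3 ± 0.568 FPKM with liraglutide and 16.3 ± 0.755 FPKM in the model group (SD, n = 4 per group; edgeR adjusted p = 0.0438). The call ended in 14 of 20 alternatives, and with an offset for gene length and GC content the log2 fold change was -0.00251. Of 6 tested costimulation genes 0 were called by edgeR (median -0.04, from -0.25 to 0.10 with 1 library left out), and 0 had an unadjusted p under 0.05. Cd274, the ligand of PD-1, stood at 1.02, 1.35, 0.704 and 1.2 FPKM with liraglutide, against 5.52, 0.78, 1.3 and 1.18 FPKM in the model group, with model 1 again apart. Icosl, the ligand of ICOS, had a log2 fold change of 0.23.

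Of 16 regulators of MHC transcription 0 were called by edgeR (median 0.07), and DESeq2 and limma each called 1 lower (Creb1). With raw library sizes edgeR also called 1 lower, and the median was -0.0065. An unadjusted p under 0.05 was found for 3 (Creb1, Rela and Nfyc), against 26.5% of all tested genes. Creb1, a factor that can bind the X2 box, averaged 2.42 ± 0.321 FPKM with liraglutide and 3.22 ± 0.247 FPKM in the model group (SD, n = 4 per group; log2 fold change -0.33, edgeR adjusted p = 0.0683). Rela, a subunit of NF-kappaB, had a log2 fold change of 0.22 (edgeR adjusted p = 0.112). Nlrc5, the class I counterpart of Ciita, was singled out after its values had been seen. Nlrc5 stood at 0.932, 0.374, 0.514 and 0.996 FPKM with liraglutide, against 2.62, 0.732, 1.0 and 0.798 FPKM in the model group, again highest in model 1 (log2 fold change -0.80, edgeR adjusted p = 0.288).

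In the list of interferon gamma signalling, the cytokine best known to induce these genes, 1 of 17 tested genes fell and 0 rose. Of all tested genes 4.83% were called lower. The median of the list was -0.28, and it was 0.11 without model 1 and -0.11 without liraglutide 2. Model 1 stood apart here as in the members, with a summed level of 749 CPM, against 502 to 546 CPM in the other model libraries and 445 to 594 CPM with liraglutide. The called gene was Ifngr1, the ligand-binding receptor chain, which averaged 21.1 ± 1.75 FPKM with liraglutide and 27.1 ± 1.69 FPKM in the model group (SD, n = 4 per group; edgeR adjusted p = 0.0464). Its call ended in 15 of 20 alternatives. The chemokine Cxcl10 went the other way, at 1.92, 0.448, 1.85 and 2.07 FPKM with liraglutide, against 0.86, 0.846, 0.441 and 0.546 FPKM in the model group (log2 fold change 1.30, edgeR adjusted p = 0.1), and was called higher without liraglutide 2, its lowest liraglutide library. Ifng itself had 0 counts in all 8 libraries.

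Markers of cells that carry class II were summed per library. Macrophage markers summed to 385, 217, 226 and 239 CPM in liraglutide libraries, against 365, 331, 320.0 and 289.8 CPM in model libraries. Liraglutide 1 was the highest of all 8 for these markers, and the other liraglutide libraries lay below the model range. Liraglutide 2, 3 and 4 were also below the model range in 6 members of both classes, H2-K1, H2-D1, B2m, H2-Aa, H2-Eb1 and Cd74. That rule sets aside the highest liraglutide value of each of them. The share of all tested genes that meet it was not computed, so the count is a description only. Of 14 macrophage markers 0 were called by edgeR, and 10 had a negative log2 fold change (median -0.11). An unadjusted p under 0.05 was found for 3, all lower with liraglutide, Cd163 (-0.44), Csf1r (-0.39) and Adgre1 (-0.54). Of all tested genes, 13.4% were lower at that threshold. The most abundant, the complement genes C1qc and C1qb, had log2 fold changes of 0.04 and -0.06.

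Dendritic cell markers summed to 33.2 to 44.1 CPM in liraglutide and 44.5 to 49.3 CPM in model libraries. The nearest were liraglutide 1 and model 3, whose gap is smaller than the difference of their TMM factors (0.976 and 1.02), which these sums leave out. Flt3, Xcr1, Clec9a, Ccr7 and Batf3 had too few counts for the test. Of 6 tested, Itgax, which encodes the integrin CD11c, fell and 0 rose, against 4.83% of all tested genes called lower. Itgax stood at 0.37, 0.278, 0.274 and 0.162 FPKM with liraglutide, against 1.21, 0.599, 0.715 and 1.19 FPKM in the model group (log2 fold change -1.69, edgeR adjusted p = 0.01). Its counts were low, 12 to 28 with liraglutide and 39 to 86 in the model group. Cd209a had the 1 positive log2 fold change of the list (0.33), without a call. The most abundant of the list, Clec10a and Fscn1, had log2 fold changes of -0.39 and -0.22 without a call. B cell markers, led by Cd79a and Cd79b, summed to 2.0 to 4.66 CPM in liraglutide and 1.8 to 9.21 CPM in model libraries, with model 1 the highest, and 0 of 8 had enough counts for the test. T and NK cell markers, led by Cd2 and Nkg7, summed to 3.21 to 3.67 CPM in liraglutide and 2.86 to 6.31 CPM in model libraries, with 0 of 3 tested called by edgeR and 0 at an unadjusted p under 0.05. The 2 lists hold few counts, and single genes went both ways: Nkg7 had 6, 10, 12 and 6 counts with liraglutide, against 2, 2, 4 and 1 in the model group, and Ncr1 had 0 counts in all liraglutide libraries, against 3, 1, 3 and 1 in the model group.

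Endothelial markers, from cells that carry class I, summed to 446 to 528 CPM in liraglutide and 507 to 586 CPM in model libraries, with 0 of 10 called by edgeR, 6 negative and 4 positive log2 fold changes (median -0.12), and 2 (Tek and Pecam1, both lower) at an unadjusted p under 0.05. Over all tested genes that share was 26.5% in either direction and 13.4% lower. The most abundant endothelial markers were Pecam1 and Cldn5, and Cldn5 had a log2 fold change of 0.04. Pecam1 averaged 25.9 ± 0.705 FPKM with liraglutide and 29.7 ± 1.34 FPKM in the model group (SD, n = 4 per group). Adipocyte markers summed to 949 to 1385 CPM in liraglutide and 1568 to 2455 CPM in model libraries, and 7 of 10 fell, among them Fabp4 and Adipoq. Neutrophil markers, led by S100a9 and S100a8, summed to 90.5 to 343 CPM in liraglutide libraries. In model libraries 1 to 4 they summed to 73.5, 5.39, 124 and 177 CPM, so model 2 held very few of them. By edgeR 0 of 10 were called, although all 10 had a positive log2 fold change (median 1.10). Elane (2.15) and Mpo (1.70) had an unadjusted p under 0.05, with 2 and 1 counts in model 2. Of 14 fibre markers 8 rose and 0 fell (median 0.21), among them Acta1 and Ckm. The part of these cells in the levels of the members was not tested.

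**Figure D5:**
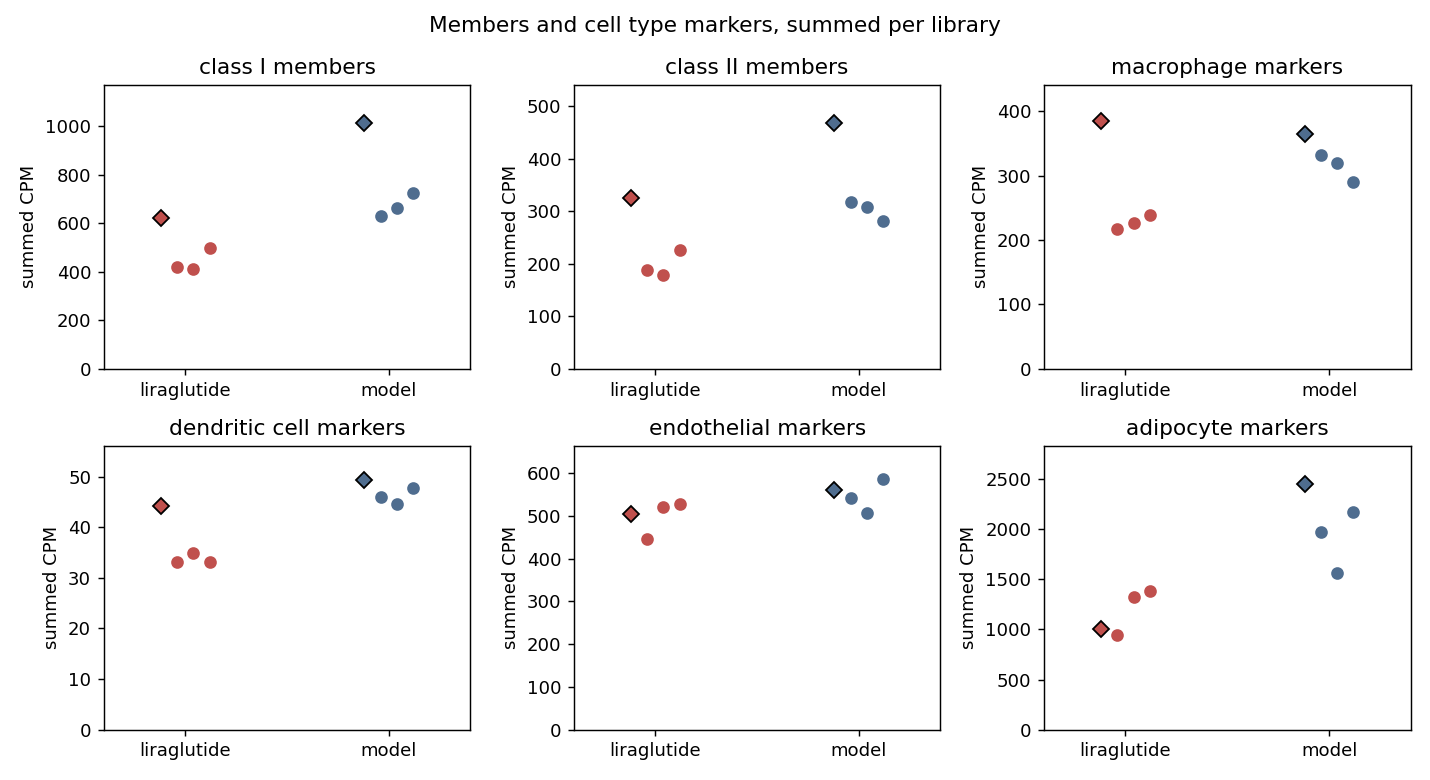
Summed CPM per library of the class I members, the class II members and lists of cell type markers, liraglutide left and model right, with diamonds for replicate 1. Macrophage sums reach 385 CPM in liraglutide 1 and 365 CPM in the highest model library.

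Genes outside the 10 whose pattern over the 8 libraries lay nearest to H2-Ab1 and H2-K1 were sought by the root mean square difference of mean-centred log2 CPM. For H2-Ab1 the nearest were Rnf169 (0.11), Bnc2 (0.117), C1qa (0.131), Dennd1c (0.149) and Marchf1 (0.163), where H2-Ab1 itself deviated from its mean by 0.398. C1qa, a macrophage complement gene, averaged 23.2 ± 8.04 FPKM with liraglutide and 25.8 ± 6.32 FPKM in the model group (SD, n = 4 per group). Marchf1 encodes a ubiquitin ligase that removes class II from the surface. Cd74 and H2-Eb1 ranked 4 and 5 of all tested genes in nearness to H2-Ab1. The other members ranked from 10 (H2-Aa) to 6431 (Tap1), with B2m at 531 and Ciita at 1085.

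For H2-K1, which deviated from its mean by 0.428, the nearest of all tested genes were members of both classes, Cd74 (0.0954), H2-Aa (0.108) and B2m (0.116). H2-D1, the other classical heavy chain, ranked 13. Farther off were Tap2 at rank 401, Ciita at 1565 and Tap1 at 2609. Outside the members, the nearest were Dock2 (0.122), Lgals3bp (0.123), Dcbld2 (0.132), H2-DMb1 (0.145) and Pltp (0.147). H2-DMb1, a chain of the class II peptide editor, stood at 4.5, 2.95, 2.11 and 3.27 FPKM with liraglutide, against 7.91, 4.66, 4.39 and 6.0 FPKM in the model group (log2 fold change -0.77, edgeR adjusted p = 0.0812). Pltp, the phospholipid transfer protein, had a log2 fold change of -0.53 (edgeR adjusted p = 0.0421), a call that ended in 7 of 20 alternatives.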

How the data were processed

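Read counts and FPKM per gene of 8 libraries were taken from the table the authors deposited, whose file headers name both units. Poly(A) RNA was made into stranded libraries, per the labels' protocols. Tools named in the submitters' processing notes are HISAT2, HTSeq, Cufflinks, Trimmomatic and DESeq, without versions. The build named there is the human GRCh38, although 21979 of 22173 genes matched a mouse RefSeq identifier, so coordinates given are those of RefSeq GRCm38.p6. Lengths implied by the counts and FPKM the authors deposited were whole numbers (within 0.01 base) for 17484 of 17484 genes with counts, so FPKM are counts over library total and gene length. No label states that the mice were independent beyond a separate animal code per library; p-values measure the spread between these samples.

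Counts were tested in edgeR 4.0.16 (R 4.3.3; TMM, filterByExpr with minimum count 10, quasi-likelihood test). The SE is the log2 fold change without shrinkage over the square root of F. The procedure was tested on simulated data. Sums of CPM use library totals; pattern distances use log2 CPM with a prior count of 2. Alternatives were RLE, upper quartile and raw scaling, no count filter, a filter of 1 FPKM in 4 libraries, DESeq2 1.42.0, limma 3.58.1 on log2(FPKM + 1) and log2(FPKM + 0.1), a replicate block, an offset for gene length (loess, span 0.5), omission of each library, and omission of liraglutide 2 with model 3. An offset for length and GC content (known for 98.3% of tested genes) was added after seeing the data.

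Members and lists were chosen with earlier results of these data known. The text names all members; in each partner list the called genes, up to 6 by smallest p, or else the 2 with the smallest p; in marker lists the 2 with the highest mean FPKM; and the 5 genes nearest to H2-Ab1 and H2-K1. Nlrc5, Nfyc, Erap1, Tapbp, Pdia3, Cxcl10, Ifng, Itgax, Cd163, Csf1r, Adgre1, Ncr1, Tek, Elane and Mpo were named after their values were seen. So were Cd209a, Flt3, Xcr1, Clec9a, Ccr7 and Batf3. H2-T10, H2-K2, Cd1d2, H2-Ea, March1 and March8 were listed but matched no row under these symbols and are not analysed here.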

Additional observations from a re-analysis of the deposited data

Results flagged for a closer look

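The level of Cd74 in model 1, 156 FPKM, lay far from the other 3 model libraries, which stood between 93.4 and 103 FPKM. The gap to the nearest of them took 0.841 of the range of the group, above the critical value of 0.829 for 4 samples. This was 1 of 20 groups examined (10 members in each of the liraglutide and model groups), and chance alone gives about 1 in 20. Model 1 was also the highest of all 8 libraries for the other 9 members.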

How the results depend on the processing

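Over 20 alternatives B2m was called in all 20, and none called Tap1, Tap2, H2-Ab1 or Ciita. Of 199 values of single members, 182 kept direction and side of the threshold and 12 passed it newly. Signs turned in 5, for Tap1 (0.0586), Tap2 (0.0406) and Ciita (0.279) without model 1, and for Ciita without liraglutide 3 (0.106) and with the gene length offset (0.0479); the cause was not tested. Leaving out 1 library, log2 fold changes ran from -0.839 to 0.0586 in Tap1, from -0.348 to 0.0406 in Tap2 and from -0.350 to 0.279 in Ciita. DESeq2 called 2 class II members lower, and raw library sizes 2 class I members. Correlations of deviations between samples of the same replicate number were 0.149, -0.0275, 0.143 and 0.0648 for replicates 1 to 4. The highest with a model library of another number were 0.0573, 0.14, -0.0249 and 0.0853. These values do not settle whether the numbers pair the samples, and no label states a pairing. With the replicate block 3 class I and 3 class II members were called, and 1035 genes.

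Leaving out 1 library gave 1 to 2 class I and 0 to 3 class II members called, most without liraglutide 1. Class I medians ran from -0.72 to -0.19 and class II medians from -0.71 to -0.32. Genes called ran from 615 (without model 1) to 1231, higher from 344 to 662 and lower from 271 to 569. Also over 1.5 times below 1333 were 862 without liraglutide 3, 713 without model 2 and 731 without model 4. Omitting liraglutide 2 with model 3 left 697 (365 higher, 332 lower). Higher and lower calls were 338 and 1241 with raw library sizes, 359 and 1049 with limma on log2(FPKM + 1), 352 and 1013 on log2(FPKM + 0.1), and 378 and 283 (661 in all) with the length and GC offset; 362 were lower with the length offset. Ciita was not tested with the filter of 1 FPKM. Depth limits Ciita and the B and T cell markers.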
